A study of Caenorhabditis elegans with 2 samples.

Results

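The 6 onecut homeobox genes of C. elegans, ceh-21, ceh-38, ceh-39, ceh-41, ceh-48 and ceh-49, were examined for entries in the PHA-4 peak lists, among 19973 protein-coding genes in all. The genes were selected by name as a family, with earlier results of these data known, and their entries were selected on the position of the summit. An entry belonged to a gene when its summit lay between 5000 bp upstream of the gene's annotated 5' end and its 3' end. The study mapped PHA-4 by chromatin immunoprecipitation and sequencing (ChIP-seq), in which DNA bound by a chosen protein is recovered and sequenced. The animals were mixed-stage embryos, pooled from both sexes, of strain OP37, which carries unc-119(ed3) III and the array wgIs37. That array supplies the eGFP-tagged PHA-4. Whole embryos were used, and cells that differ in PHA-4 were not separated. The labels name the tagged protein as the target and pha-4 as the antibody. Any share of the signal from endogenous untagged PHA-4 therefore cannot be told apart. There were 2 biological replicates, each from its own biosample, in 1 group.

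The data were 4 ce11 lists: 30000 entries from each replicate, 21931 from both replicates pooled, and the 2177 pooled entries that passed the authors' reproducibility threshold. Each entry carries a signal value from the peak caller, which is the authors' own and is not scaled between lists. Within the pooled list the thresholded entries are the 2177 strongest, with signals from 35.9 to 348. Ranks below count from the strongest entry of a list. The replicate lists reach down to weak background entries, with a minimum of 3.92 (replicate 1) and 5.25 (replicate 2). The depth of the libraries is unknown.

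PHA-4 is a FoxA-type forkhead factor that specifies pharyngeal cells. Onecut proteins carry a single cut domain next to a homeodomain, and the vertebrate members act in liver, pancreas and neurons. In C. elegans, ceh-39 is known as an X signal element, a gene through which the number of X chromosomes is read by repression of the sex switch gene xol-1. The genes ceh-38 and ceh-48 are known to act with other cut-class genes in switching on genes used by all neurons.

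Binding was strong at ceh-38 and at ceh-39, and weak or not listed at the other loci. The sequences at these sites are shown as a description. All are RefSeq sequence from the plus strand of ce11, in lower case, with capitals for matches on either strand to TRTTKRY, a published PHA-4 consensus (R is A or G, K is G or T, Y is C or T), or to GAGAGA, a repeat common at the strong peaks of these data. The ceh-38 entry lies at chrII:6951439-6951702, and its part upstream of the first annotated 5' end (chrII:6951439-6951525, 87 bp) holds no match to either. The only TRTTKRY match within 100 bp of its summit lies in the transcribed stretch and is shown with 10 bases on each side (chrII:6951624-6951650). The ceh-39 entry lies at chrX:1856196-1856459, touches no annotated exon, and is shown whole (264 bp). For comparison, 101 bp around the summits of 2 weaker entries are given, the strongest below the threshold at ceh-38 (chrII:6948545-6948645, in an intron of malt-1) and the only pooled entry at ceh-48 (chrIV:6809832-6809932).
ceh-38 entry, upstream part: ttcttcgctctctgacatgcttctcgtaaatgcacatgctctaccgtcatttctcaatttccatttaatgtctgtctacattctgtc
ceh-38 entry, motif site: ctagagacggACAAACAacgcgcggcc
ceh-39 entry: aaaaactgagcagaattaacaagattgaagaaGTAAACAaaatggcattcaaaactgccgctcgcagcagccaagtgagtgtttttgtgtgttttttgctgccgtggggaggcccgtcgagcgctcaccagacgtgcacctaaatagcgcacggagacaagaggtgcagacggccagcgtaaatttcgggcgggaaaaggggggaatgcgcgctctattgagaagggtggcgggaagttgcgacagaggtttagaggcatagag
ceh-38, weaker upstream entry: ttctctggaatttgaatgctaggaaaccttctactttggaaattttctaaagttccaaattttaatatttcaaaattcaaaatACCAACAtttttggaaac
ceh-48 entry: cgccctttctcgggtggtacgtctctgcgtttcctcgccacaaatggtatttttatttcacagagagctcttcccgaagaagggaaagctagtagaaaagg

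Of the 6 genes, 3 (ceh-38, ceh-39 and ceh-21) had a thresholded entry in the window, where 18.5% of all protein-coding genes had one. These 3 genes rested on only 2 entries, because ceh-39 and ceh-21 share theirs. In the pooled list 5 of 6 had an entry against 71.7% of genes, in replicate 1 all 6 against 84.9%, and in replicate 2 5 of 6 against 80.9%. Since the genes were chosen with their entries known, nothing is read from these counts, and the pooled and replicate shares lie near the background. The members' windows overlap on X and form 4 stretches of 38823 bp in all. They held 15 different pooled entries, or 3.86 per 10 kb against 2.19 over the genome, and 2 thresholded entries, or 0.515 per 10 kb against 0.217. The genome figures cover all sequence and not only gene windows, so they are no like baseline. Nothing is read from these densities either, and the thresholded one rests on 2 entries.

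**Figure D1:**
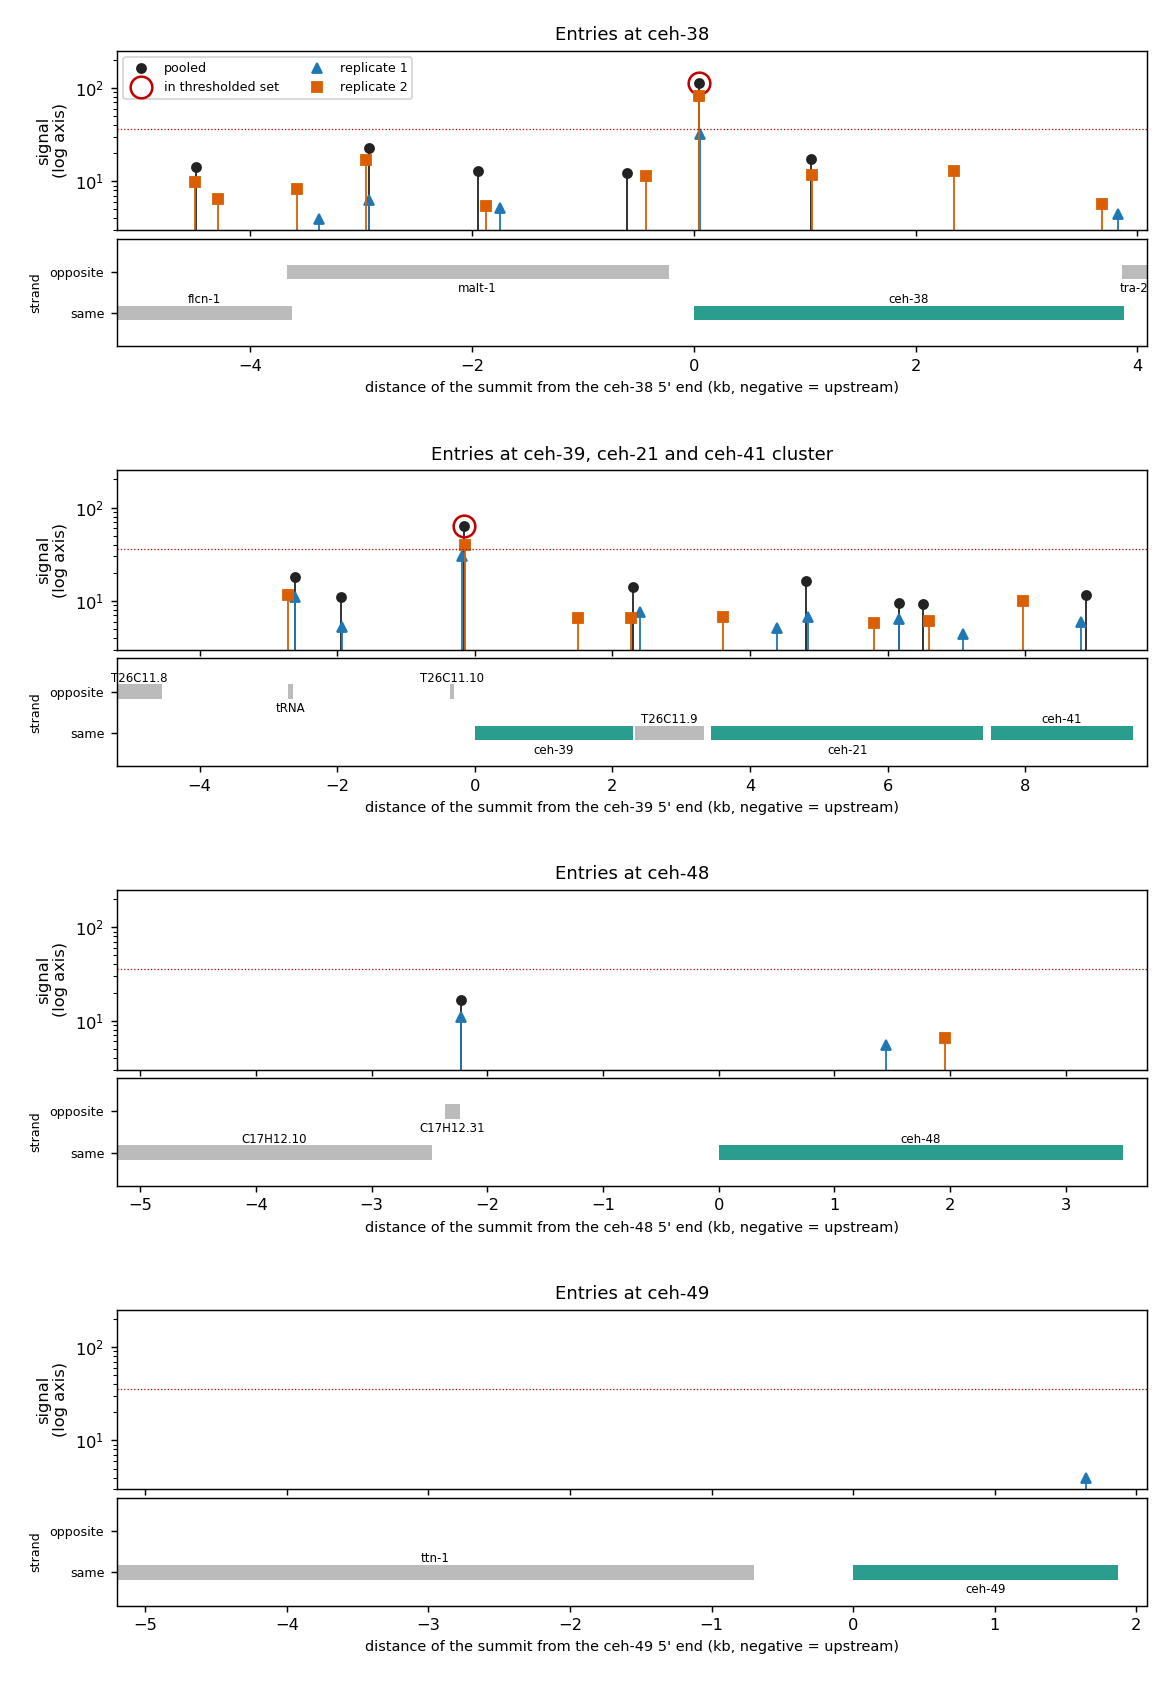
Signal (log axis) of every entry in the windows of the 6 genes against distance from a 5' end in kb, for the pooled list (circles), replicate 1 (triangles) and replicate 2 (squares), with gene extents by strand beneath (onecut genes in green). The thresholded entries (red rings) stand at the 5' ends of ceh-38 and ceh-39 above the dotted line at 35.9, and ceh-49 has a single weak entry in replicate 1.

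The ceh-38 gene (WBGene00000459, II 6951526 to 6955409, plus strand) carried the strongest entry of the family. Its thresholded entry had a pooled signal of 113 and rank 147 of 21931, with 32.4 (rank 665) in replicate 1 and 82.3 (rank 58) in replicate 2. Only 339 of the 19973 genes had a stronger pooled entry in their windows. The site was thus among the strongest of replicate 2 and less prominent, though still inside the leading 2177, in replicate 1. The log2 ratio of its replicate 1 rank over its replicate 2 rank was 3.52, and a ratio at least as high was found for 46 (2.14%) of the 2153 thresholded entries that overlapped both replicate lists. The median over those entries was 0.04, with an interquartile range of -0.97 to 1.06.

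The ceh-38 summit lay 45 bp inside the gene, in exon sequence annotated as untranslated. Annotation gives the gene 24 transcripts with 11 different 5' ends, and the summit fell between the first of them and the next, 48 bp further on. The gene stands head to head with malt-1, which encodes a homologue of the vertebrate paracaspase MALT1. Their 5' ends are 226 bp apart and the summit lay 271 bp from that of malt-1, so the entry lies in both genes' windows and cannot be given to one of them by position. The replicate summits were at 12 bp (replicate 1) and 0 bp (replicate 2) from the pooled one.

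Another 5 pooled entries lay in the ceh-38 window, all below the threshold. The strongest, at -2931 bp in an intron of malt-1, had a signal of 22.4 (rank 4159), with 6.30 in replicate 1 and 17.1 in replicate 2. Inside ceh-38, an entry 1061 bp from the 5' end in coding sequence had a signal of 17.2 (rank 6233), with 11.8 in replicate 2 and no entry in replicate 1. The remaining 3, with pooled signals of 12.4 to 14.1, lay over malt-1 coding sequence (-598 and -1948 bp) and over the end of flcn-1, the folliculin gene (-4487 bp). Of these 5, 2 overlapped an entry in both replicates and 3 in replicate 2 alone. The replicate 2 list held 10 entries in the window and the replicate 1 list 5. Those of replicate 2 include an entry in ceh-38 coding sequence, 2342 bp from the 5' end (12.8, rank 5645). No pooled or replicate 1 entry overlapped it. The 3' end of the gene overlaps tra-2, which encodes a membrane protein that promotes female fates, and a weak replicate 1 entry (4.41) reached into that overlap. A replicate 2 entry (5.65) lay near the 3' end, short of tra-2, and neither was in the pooled list.

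On X, ceh-39, ceh-21 and ceh-41 lie in a row on the minus strand. The order in the direction of transcription is ceh-39 (WBGene00000460, 1853874 to 1856172), T26C11.9, ceh-21 (WBGene00000444, 1848779 to 1852736) and ceh-41 (WBGene00000462, 1846608 to 1848675). Only 24 bp separate ceh-39 from T26C11.9, 101 bp T26C11.9 from ceh-21, and 103 bp ceh-21 from ceh-41. The windows of neighbours therefore overlap, and of the 8 pooled entries in the cluster 4 belonged to more than 1 onecut gene.

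The thresholded entry of the cluster lay 156 bp upstream of the ceh-39 5' end, at the head of the row. Its pooled signal was 63.6 (rank 795 of 21931), with 30.1 (rank 771) in replicate 1 and 39.4 (rank 668) in replicate 2. The replicates ranked it alike, with a log2 rank ratio of 0.21, and 1499 genes had a stronger pooled entry in their windows. The replicate summits lay 37 bp and -8 bp from the pooled one along the chromosome. The entry also falls in the window of ceh-21, at -3592 bp, where it lies beyond both T26C11.9 and ceh-39. It lies in the windows of T26C11.9 and of the opposite-strand gene T26C11.8 as well, 2479 and 4394 bp upstream. An annotated non-coding RNA gene on the opposite strand, T26C11.10, begins 145 bp from the summit, closer than ceh-39.

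Further upstream of ceh-39 stood 2 weaker pooled entries. At -2613 bp the signal was 17.9 (rank 5799), with rank 3865 in replicate 1 and rank 7074 in replicate 2, and this entry overlaps a tRNA gene (1858819 to 1858890). Its nearest protein-coding 5' end was that of T26C11.8, not of ceh-39. At -1948 bp the signal was 11.1, with 5.23 in replicate 1 and no entry in replicate 2. Inside the gene only replicate 2 had summits, at 1504 bp (6.58) and 2265 bp (6.56) from the 5' end, neither among the pooled entries of the gene.

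The other cluster entries were weak. At the junction of T26C11.9 and ceh-39, 1132 bp upstream of ceh-21, the pooled signal was 14.0 (7.62 in replicate 1, and in replicate 2 the entry of 6.56 named above). Within ceh-21 coding sequence an entry with its summit at 1851353 had a pooled signal of 16.5 (rank 6645) and a replicate 1 signal of 6.79, and replicate 2 had no overlapping entry. Near the ceh-21 3' end 2 more had signals of 9.61 and 9.28, close to the lowest of the pooled list, 9.22. All 3 also lie upstream of ceh-41, from -2678 to -983 bp, so position does not assign them. The only pooled entry of ceh-41 alone was in its coding sequence (11.5, rank 13887), with 5.98 in replicate 1 and no overlapping entry in replicate 2. The strongest replicate 2 entry at ceh-41 was another one, in coding sequence 472 bp from the 5' end (9.92, rank 9663). The thresholded entry nearest to the ceh-41 5' end lay outside the window, past the 3' end at chrX:1845520-1845783 (36.6), and had its nearest 5' end at T26C11.4.

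The ceh-48 gene (WBGene00015934, IV 6812108 to 6815607, plus strand) had 1 pooled entry, at -2226 bp from the 5' end, with a signal of 16.9 (rank 6401), overlapping the non-coding RNA gene C17H12.31. Replicate 1 held the same site at 10.9 (rank 3919), and replicate 2 had no overlapping entry. In the gene body each replicate listed a different weak entry in coding sequence, 5.47 in replicate 1 and 6.47 in replicate 2. The nearest thresholded entry was at -21497 bp (69.1), by C17H12.2.

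The ceh-49 gene (WBGene00017538, V 6118333 to 6120206, minus strand) had no pooled, thresholded or replicate 2 entry. The single entry of replicate 1, in coding sequence, had a signal of 3.96 and rank 29433 of 30000, near the lowest of that list. Upstream of it lies ttn-1, the titin gene, 702 bp away, and the pooled list had no summit in the 5000 bp before the gene. The nearest pooled entry of any strength was 9519 bp from the 5' end on the 3' side (38.5), and it is a thresholded entry whose nearest 5' end belongs to F17A9.4. A missing entry means that no peak was listed in whole embryos at an unknown depth, and binding in few cells may have gone undetected.

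**Figure D2:**
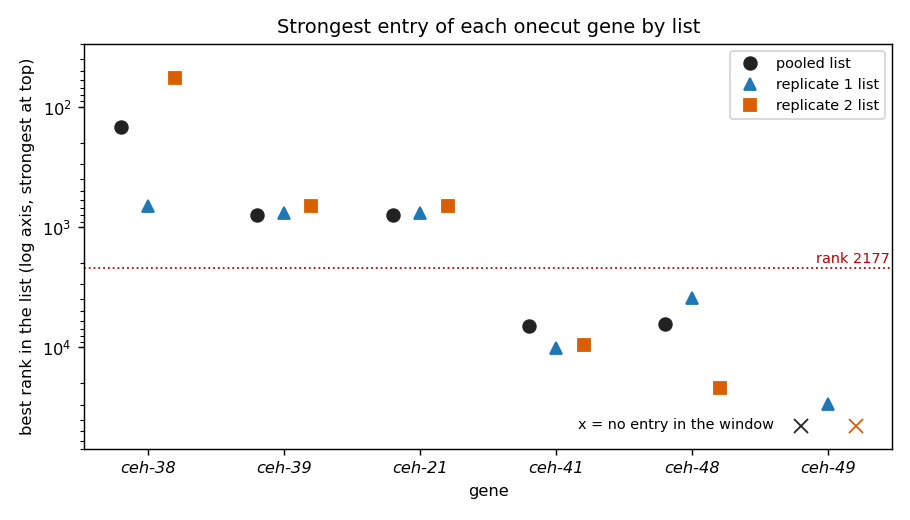
Best rank of any entry in the window of each gene (log axis, strongest at the top) in the pooled list, replicate 1 and replicate 2, with crosses for no entry and a dotted line at rank 2177. For ceh-38, ceh-39 and ceh-21 all 3 lists lie above the line, ceh-39 and ceh-21 through the same entry, and for the others none does.

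By strongest pooled entry the order was ceh-38 (113), ceh-39 and ceh-21 (63.6, shared), ceh-48 (16.9), ceh-41 (16.5) and ceh-49 (none). The leading 3 were also those with an entry among the 2177 strongest of replicate 1 alone and of replicate 2 alone. The order of ceh-48 and ceh-41 was not stable: ceh-48 led in replicate 1 (10.9 against 6.79) and ceh-41 in replicate 2 (9.92 against 6.47). Just outside the 5000 bp limit, ceh-38 had a pooled entry at -5139 bp (25.3), while the outermost inside it was at -4487 bp (14.1), and ceh-41 had one at -5193 bp (14.0). The strongest member entry below the threshold (22.4) was well under its edge (35.9).

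The 2 thresholded entries overlapped an entry in both replicates, as did 4 of the 13 weaker ones. The pooled list comes from these same replicates, and 1 bp of overlap was enough. Among those 4, a replicate summit lay up to 205 bp from the pooled one. Of the weaker entries 9 overlapped an entry of replicate 1, 8 one of replicate 2 and 4 (30.8%) both, where 37.3% of all 19754 pooled entries below the threshold overlapped both. Over the thresholded set 98.9% did, a share that follows from how the set was made.

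The same windows were taken for the other homeobox genes named ceh, and not for all homeobox genes. Of 57 other genes that Ensembl names ceh, 3 (5.26%, exact 95% interval 1.10 to 14.6, counting error only) had a thresholded entry in the window, and 47 (82.5%) a pooled one. Ensembl names the locus of the cut-class gene ceh-44 cone-1, and with it the counts were 4 of 58 (6.90%) and 48 of 58, an addition made after seeing the data. The difference from 3 of 6 onecut genes was not tested, since the genes were chosen with their entries known. The 3 of the 57 were ceh-5 (150), ceh-24, an NK-2 family gene (64.6), and ceh-2 (40.8). The entries of ceh-5 and ceh-24 lay over 4 kb upstream, at -4765 and -4604 bp, and were nearer to the 5' ends of eat-16 and swan-1. When an entry counted only for the nearest 5' end, 2 of 6 onecut genes (ceh-38 and ceh-39) and 1 of 57 others had one, where 8.91% of all genes did. Among the 64 ceh genes, ceh-44 included, ceh-38 held place 2 by strongest pooled entry, ceh-39 and ceh-21 shared places 5 and 6, ceh-48 held place 22 and ceh-41 place 24.

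**Figure D3:**
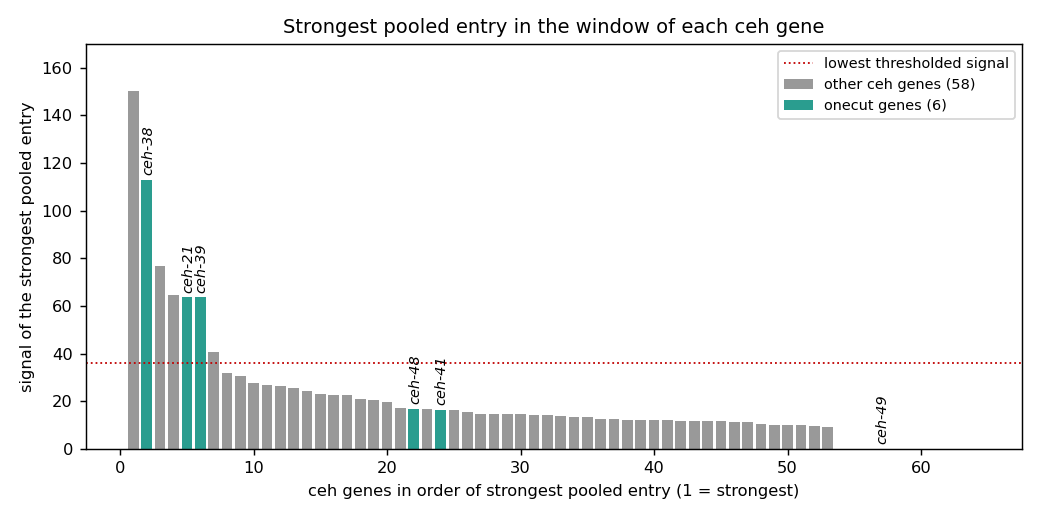
Signal of the strongest pooled entry in the window of each of 64 ceh genes (ceh-44 included), in order, with the 6 onecut genes in green and the lowest thresholded signal (35.9) as a dotted line and no bar where there was no pooled entry. Of the 7 genes above the line, 3 are onecut genes, and ceh-39 and ceh-21 show the same entry.

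By best ranks in the pooled and replicate lists, the other ceh gene most like ceh-38 was ceh-5 (ranks 53, 186 and 22 in the pooled list, replicate 1 and replicate 2), at a summed absolute log2 rank difference of 4.71 over 3 lists and 2 replicates. The next of the 58 candidates was ceh-44 (ranks 507, 204 and 1435), at 8.12. The genes most like ceh-39, and equally ceh-21, were ceh-24 (ranks 771, 271 and 2424, at 3.41) and ceh-44 (3.67).

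Sequence at the 15 pooled summits was compared with the same windows of 201 bp over the lists, on both strands with overlapping matches counted, as a description. TRTTKRY stood in 8 of 15, against 52.3% of all pooled windows and 61.1% of thresholded ones. Both strong sites had 1 match. At ceh-38 it read TGTTTGT, 63 bp from the summit on the minus strand, in the motif site printed above. At ceh-39 it read TGTTTAC on the minus strand, at the very edge of the window (-100 bp from the summit), and it is the only match to the stricter FoxA-type site TGTTTRC in any of the 15 windows, against 10.7% of pooled and 20.6% of thresholded windows. It is the capitalised stretch of the ceh-39 sequence.

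GAGAGA was in neither strong window, although 47.7% of thresholded windows hold it. It stood in 5 of the 15 (33.3%), all weak, against 21.4% of pooled windows. The onecut-type sites ATCGAT and ATTGAT were in 0 and 2 of 15 windows, against 6.80% and 17.7% of pooled windows, and the GATA-type site TGATAA in 2 (16.2% of pooled windows). The ceh-38 entry does hold an ATCGAT, starting 109 bp from the summit and so outside the window searched. The ceh-39 window had 56.2% GC and the ceh-38 window 46.3%, against a median of 44.8% over thresholded windows, and the weaker windows spanned both, from 24.9 to 37.3% at ceh-38 and from 40.3 to 57.2% at the other genes. A match describes letters only and is not a bound site.

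Genes connected with the family were counted in the same windows. The cut-class gene ceh-44, of the CUX type, was counted in the whole cone-1 locus. Its thresholded entry (76.7, rank 507) lay at -1811 bp and was nearer to the 5' end of rbc-2. Of 9 genes of X-to-autosome counting and its targets, 4 had a thresholded entry. They were sea-2, a zinc-finger autosomal signal element (123), and xol-1, the target of ceh-39 (81.8), with sdc-2 (55.6) and sdc-1 (36.4). Both sdc genes are of sex determination and dosage compensation. That is 44.4% against 18.5% of all genes, and these genes have longer windows (median 11772 bp against 7027), whose part in the count was not tested. Their median strongest pooled signal, with genes lacking an entry at 0, was 28.5 against 12.9 over all genes. At sdc-2 and sdc-1 the entries were near the 5' end (-405 and -338 bp), at sea-2 8487 bp inside the gene, and at xol-1 2 entries lay at -4894 and -4515 bp. The other 5 (sex-1, fox-1, sea-1, sdc-3 and her-1) had none.

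Of 15 pan-neuronal genes, 4 (26.7%, exact 95% interval 7.79 to 55.1) had a thresholded entry, against 18.5% of all genes, namely ric-19 (54.3), the synaptobrevin gene snb-1 (46.9), the neuropeptide-processing gene egl-21 (43.6) and the syntaxin gene unc-64 (42.4). These genes also have longer windows, with a median of 10700 bp. The egl-21 entry was nearer to the 5' end of ced-5, and those of ric-19 and snb-1 lay at -177 and -384 bp. The median strongest pooled signal of the list was 24.6, against 12.9 over all genes.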

How the data were processed

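ChIP-seq peak lists of 2 biological replicates were used. Per the labels and the deposited file listings, the authors called entries per replicate and for the replicates pooled, with control reads (ce11), and took the thresholded set from these lists by irreproducible discovery rate. In the deposited lists the signal of each entry is the caller's own, not scaled between lists. The sources used here name no caller, aligner or threshold. The ce10 lists and control reads were not analysed here.

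Summits were compared with Ensembl release 115 and sequence with RefSeq's copy of the same assembly, on which 0 of 84108 entries ran past a chromosome end. A gene's window ran from 5000 bp upstream to its 3' end, and an entry counted for every gene whose window held its summit. Pooled entries were given the strongest replicate entry overlapping by 1 bp or more. Coordinates are 1-based. Window and motif searches were tested on simulated data. No test was run. Tools were Python 3.11.15, numpy 2.4.6, pandas 2.3.3, scipy 1.17.1 and matplotlib 3.10.9.

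The members and lists were chosen with earlier results of these data known. Named genes were the members, genes sharing their entries, up to 4 members of each list with a thresholded entry, and for each bound member the 2 other ceh genes closest in best rank. The 3 other ceh genes with a thresholded entry were named after their values were seen.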

Additional observations from a re-analysis of the deposited data

How the results depend on the processing

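Of 49 recomputed values, 38 stayed within 1.5 times the reported one and 11 did not. The members with a thresholded entry numbered 3, and 2 with windows of 2000 or 1000 bp upstream (ceh-38 and ceh-39), with the upstream 5000 bp alone (ceh-39 and ceh-21) and by the nearest 5' end (ceh-38 and ceh-39). The 2 thresholded entries became 1 in the upstream 5000 bp alone, since the ceh-38 summit lies inside the gene. The 15 pooled entries became 8 with 1000 bp upstream and 9 by the nearest 5' end. The share of all genes, 18.5%, became 10.4% with 1000 bp upstream, 8.91% by the nearest 5' end and 9.98% with only thresholded entries above their median signal. The 3 other ceh genes became 4 with ceh-44 added and 1 with 2000 bp, with 1000 bp and by the nearest 5' end. TRTTKRY stood in 5 of 15 windows of 50 bp on each side. TGTTTRC, searched in the windows of 201 bp, stood in 1. Each replicate's 2177 strongest entries gave ceh-38, ceh-39 and ceh-21. No paired analysis was possible because there is 1 group. Unknown depth limits what a missing entry shows.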

Other observations

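After the sequences had been seen, 2 further motifs were searched in the same 201 bp windows. TTCCCGCC, an E2F-type site, stood in the thresholded ceh-39 window, 56 bp from the summit, and in none of the other 14. Another match in the printed ceh-39 entry runs past the edge of the window and was not counted. Over all lists TTCCCGCC stood in 1.65% of thresholded and 0.917% of pooled windows. ACGCAGA, found in 20.6% of thresholded and 6.38% of pooled windows, stood in neither strong window. It stood in 3 of the weaker ones, among them that of ceh-48, at -27 bp from the summit.

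The xol-1 gene, which ceh-39 represses, had 2 thresholded entries at its upstream side, with signals of 81.8 and 45.2 and ranks of 436 and 1521 in the pooled list. For both, xol-1 had the nearest 5' end. The best-ranked entry in its window was at 105 in replicate 1 and 1260 in replicate 2, the opposite order to ceh-38 (665 and 58).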
